A study of Rattus norvegicus with 8 samples.

Results

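The genes described here are 10 transcription factors of heart development: Nkx2-5, Gata4, Gata6, Tbx5, Tbx20, Mef2a, Mef2c, Mef2d, Hand2 and Zfpm2. They were chosen by gene symbol, not by a measured value, and every entry of these symbols in the deposited tables of differential expression was taken. The tables held 7 of the 10, among 9025 genes listed in any of the 5 tables. Nkx2-5, Tbx20, Mef2c, Mef2d and Hand2 had read counts in all 8 libraries. Tbx5 had counts in 6 libraries, with none for ischemia DMSO, and Gata4 had counts in the 4 eugenol libraries. Gata6, Mef2a and Zfpm2 were listed in no table and have no value here. A table listed a gene only if its unadjusted p for that pair of groups was under 0.05, so a gene missing from a table was not called there, and a gene listed anywhere had to differ somewhere.

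The RNA came from ventricular cardiomyocytes of Sprague Dawley rats 2 to 3 days old, primary muscle cells of the newborn heart that are isolated together with some non-muscle cells. The 4 groups were cells in normoxia with the solvent DMSO, in normoxia with 10 µM eugenol, in an ischemic condition (1% O2 and 5% CO2) with DMSO, and in the same ischemic condition with 10 µM eugenol, each for 24 hours and each with 2 libraries. Eugenol is a phenolic compound of clove oil, and the series asked which genes differ in cardiomyocytes given it. Separate cell isolations for the replicates are not stated in the labels, so p-values measure the spread between these libraries, which may be technical. With 2 against 2 libraries the smallest two-sided p of an exact permutation test is 0.333.

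Cardiac transcription factors work as a network. Nkx2-5, a homeodomain protein, Gata4, a zinc finger protein, and Tbx5, a T-box protein, bind neighbouring DNA sites and each other, and together they switch on contractile, ion channel and natriuretic peptide genes. MEF2 proteins bind A/T-rich sites of muscle genes and are held back by class IIa histone deacetylases until calcium-dependent kinases release them, while the Hand and Tbx20 proteins shape the ventricles in the mouse embryo.

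The read totals behind the deposited FPKM values were 14.7 to 17.7 megareads per library. Even Hand2, with the fewest reads of the members with an entry, was counted 43 to 164 times. RPM below is the count per megaread of this total, and FPKM is the authors' value per kilobase of gene length as well. Defining cardiomyocyte genes were abundant in all groups. The summed level of 10 of 12 cardiomyocyte markers was 42261 to 43366 RPM in normoxia DMSO, 43719 to 44744 in normoxia eugenol, 20905 to 22340 in ischemia DMSO and 18970 to 20583 in ischemia eugenol, and the other 2, Tnni3 and Ttn, had no entry. Summed markers of other cells moved as well. Only genes listed at an unadjusted p under 0.05 have counts, so markers that did not differ could not enter any of these sums. The summed level of 10 of 12 fibroblast markers was 17709 to 20747 RPM over the normoxia libraries and 11343 to 13077 RPM over the ischemia libraries. For 7 of 8 smooth muscle and pericyte markers it went from 4651 to 5726 RPM down to 1535 to 1830 RPM, for 5 of 10 endothelial markers (Pecam1 and Cdh5 among those with no entry) from 222 to 267 RPM down to 72.7 to 96.2 RPM, and for 6 of 9 macrophage markers (Ptprc and Cd68 with no entry) from 79.2 to 92.5 RPM down to 29.5 to 38.5 RPM. For 4 of 5 epicardial markers, of which Upk3b was at 0 in at least 1 library, it was 18.7 to 21.2 RPM in normoxia and 24.2 to 29.1 RPM in ischemia. This sum hides opposite moves: 1 epicardial marker was called higher and 3 lower with DMSO, and 1 and 2 with eugenol. Of the fibroblast markers 2 were called higher and 6 lower with DMSO, and 2 and 8 with eugenol. Of all genes tested 19.7% were called higher and 21.2% lower with DMSO, and 19.6% and 21.5% with eugenol. The part of these shifts in the results below was not tested, and in such bulk RNA fewer cells of a type and less RNA per cell cannot be told apart.

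The promoters of 3 members are shown because these genes moved in different ways. Tbx20 had the largest fall with ischemia among the members with values in both DMSO groups. Mef2d was the only member called higher with ischemia, and Hand2 gave the lowest p of the members between eugenol and DMSO in ischemia. RefSeq's table for build GRCr8 held a promoter for 7 of the 10 members, and none for Gata4, Mef2c or Zfpm2. The 250 bases before each start are given 5′ to 3′ on the gene's own strand, at chr8:31534010-31534259 (minus strand) for Tbx20, chr2:175904082-175904331 (plus strand) for Mef2d and chr16:37931489-37931738 (minus strand) for Hand2. Capitals mark a match to 1 of the motifs searched on both strands: the hypoxia-inducible factor core ACGTG, the GATA site AGATAA, the NK2 core AAGTG, the T-box core AGGTGT, the Hand E-box CATCTG and the MEF2 consensus site.
Tbx20: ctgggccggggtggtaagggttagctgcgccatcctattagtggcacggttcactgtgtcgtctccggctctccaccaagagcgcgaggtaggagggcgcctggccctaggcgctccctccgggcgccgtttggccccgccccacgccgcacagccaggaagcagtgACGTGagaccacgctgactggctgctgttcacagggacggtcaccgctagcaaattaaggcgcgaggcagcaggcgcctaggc
Mef2d: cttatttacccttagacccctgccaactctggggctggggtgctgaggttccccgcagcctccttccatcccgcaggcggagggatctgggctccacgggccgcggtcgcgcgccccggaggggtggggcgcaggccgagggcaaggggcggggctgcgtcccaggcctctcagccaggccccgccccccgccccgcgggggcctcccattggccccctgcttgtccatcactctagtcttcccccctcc
Hand2: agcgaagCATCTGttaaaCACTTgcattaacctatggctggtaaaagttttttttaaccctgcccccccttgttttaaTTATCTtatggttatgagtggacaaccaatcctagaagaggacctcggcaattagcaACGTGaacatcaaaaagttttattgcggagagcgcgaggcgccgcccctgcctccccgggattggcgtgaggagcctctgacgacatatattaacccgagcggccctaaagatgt
Tbx20 held 1 hypoxia-inducible factor core, 83 bases before its start, and no other motif. Hand2 held 4 matches: the E-box, then an NK2 core and a GATA site on the opposite strand, whose reverse complements are the letters in capitals, and a hypoxia-inducible factor core 115 bases before the start. Mef2d held none of the motifs. Of the 27457 promoters of this length in the table, 16.9% held the hypoxia-inducible factor core, 10.0% the GATA site, 40.6% the NK2 core, 11.4% the T-box core, 13.7% the E-box and 3.07% the MEF2 consensus, so single matches are common and describe letters only, not binding. Nkx2-5 and Gata6 held no match, and Mef2a held a MEF2 site 40 bases before its own start. The Tbx5 entry held no match either, but it is on the minus strand, while the deposited Tbx5 is on the plus strand. Whether that entry is the Tbx5 promoter was not tested, so its lack of a match is not read.

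The first comparison, ischemia against normoxia in DMSO, asked what the ischemic condition alone did. Tbx20, Mef2c and Nkx2-5 fell and Mef2d rose. By the adjusted p under 0.05 in the authors' deposited table, 4 of the 10 members were called, 3 lower and 1 higher, where 40.9% of the 16406 genes tested were called (21.2% lower and 19.7% higher). A count of 4 in 10 is near this background. In the eugenol groups the same comparison called 7 of the 10, 6 lower and 1 higher, against 41.1% of all genes tested (21.5% lower and 19.6% higher). The list as a whole was not tested against this background. The median change of all genes listed in each table was -0.27 on the log2 scale, and the changes of single members are read beside it below.

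**Figure D1:**
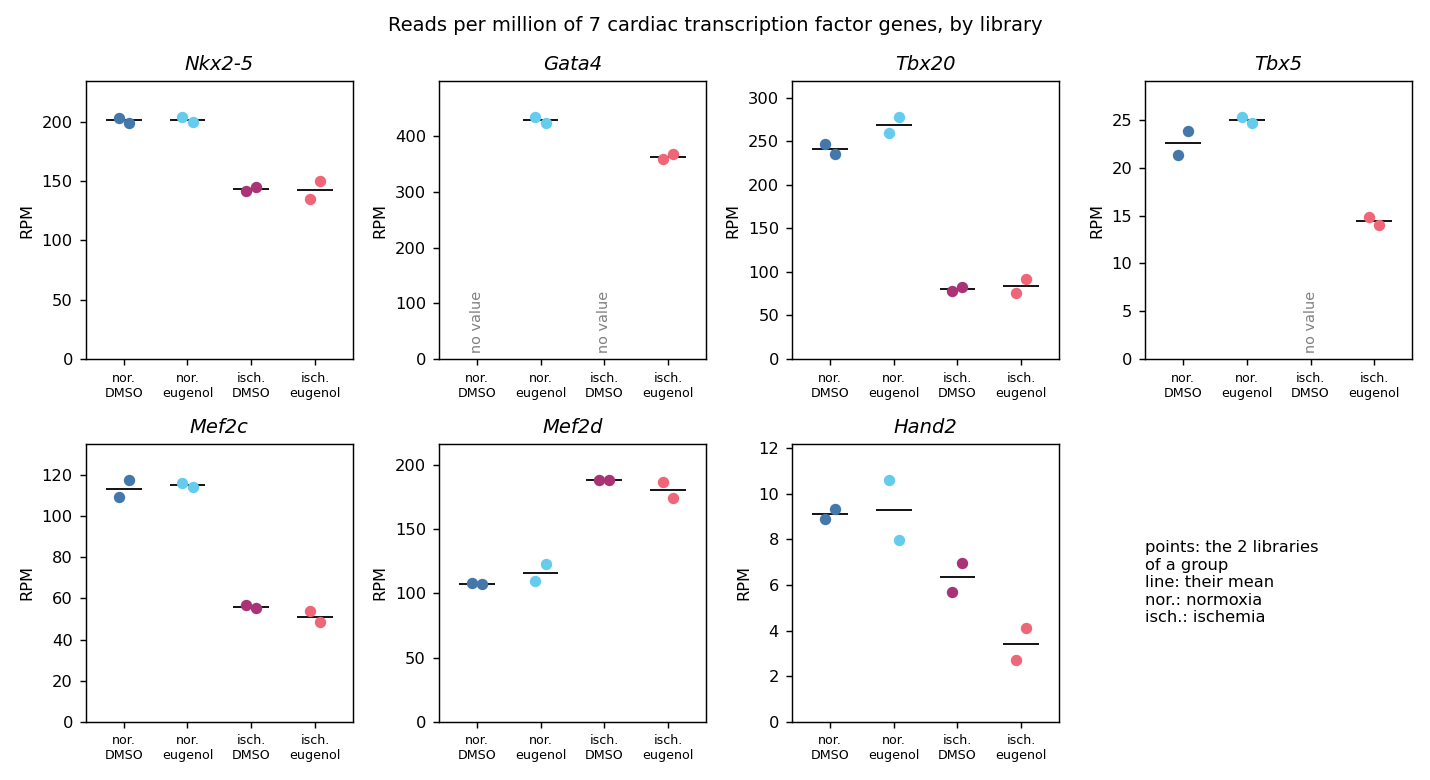
Level in RPM (linear axes from 0) of the 7 members with an entry; each point is 1 of the 2 libraries of a group and each line is their mean. Ischemia libraries sat below normoxia libraries for every gene shown but Mef2d, where they sat above, and groups with no value are marked. A gene has values only through a comparison that listed it at an unadjusted p under 0.05, so this separation was in part selected for. With DMSO, 6546 of the 6582 genes with counts in all libraries had an unadjusted edgeR p under 0.05 between ischemia and normoxia.

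Tbx20 is a T-box factor that cardiomyocytes of the adult mouse need for contraction and ion transport. Its level was 247 and 235 RPM in normoxia DMSO, 259 and 278 in normoxia eugenol, 77.9 and 82.1 in ischemia DMSO, and 76.0 and 91.4 in ischemia eugenol. All 4 ischemia libraries lay far below all 4 normoxia libraries. The mean went from 241 ± 8.07 RPM (SD, n = 2) in normoxia DMSO to 80.0 ± 2.97 RPM (SD, n = 2) in ischemia DMSO, 3.01-fold lower. In an edgeR quasi-likelihood fit of the 8 libraries the log2 change was -1.59 ± 0.0986 (SE) with DMSO and -1.68 ± 0.0988 with eugenol, and in the authors' deposited table the adjusted p was 3.16e-49 and 5.47e-48. The deposited position of Tbx20 is chromosome 8, 25850962 to 25904570, minus strand; no genome build was named for this or any other deposited position.

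Tbx5, the T-box factor whose loss of 1 copy causes Holt-Oram syndrome in humans, was a low-level gene here. Its level was 21.3 and 23.8 RPM in normoxia DMSO, 25.3 and 24.6 in normoxia eugenol, and 14.8 and 14.0 in ischemia eugenol. The ischemia eugenol libraries lay below all 4 normoxia libraries, and ischemia DMSO has no value. From normoxia eugenol to ischemia eugenol the mean fell from 25.0 ± 0.450 to 14.4 ± 0.563 RPM (SD, n = 2 each), a log2 change of -0.79 ± 0.124 in an edgeR fit of the 6 libraries with counts, with an adjusted p of 0.000298 in the authors' deposited table. Tbx5 lies on chromosome 12, 42097626 to 42148146, on the plus strand in the deposited coordinates.

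Both T-box members fell where they were called in ischemia, while every other T-box gene called in these comparisons rose. The authors' annotation put 8 T-box genes in any table. With DMSO 5 of them rose and 1 fell, Tbx20, beside 19.7% higher and 21.2% lower of all genes tested. The risers were Tbx3, a repressor that marks the conduction system (2.75 ± 0.725 to 10.4 ± 1.21 RPM, SD, n = 2), Mga (43.7 ± 3.20 to 83.4 ± 3.85 RPM), Tbx18, Tbx19 and Tbx6. Tbx18 went from 13.3 to 20.0 RPM, and Tbx19 (1.91 to 5.80 RPM) and Tbx6 (0.307 to 2.03 RPM) were low. With eugenol Tbx3, Mga and Tbx19 rose, and Tbx20 and Tbx5 fell, beside 19.6% higher and 21.5% lower. These 8 genes had passed the p filter of some comparison, and the family was not tested against the background. Family members outside the 10 were chosen by annotation with these values known.

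Mef2c and Mef2d, the MEF2 members with an entry, moved in opposite directions. Mef2c is needed for heart looping and right ventricle formation in the mouse. Its level was 109 and 118 RPM in normoxia DMSO, 116 and 115 in normoxia eugenol, 56.7 and 55.2 in ischemia DMSO, and 53.9 and 48.4 in ischemia eugenol. Every ischemia library was below every normoxia library. With DMSO the mean was 113 ± 5.96 RPM in normoxia and 56.0 ± 1.13 RPM in ischemia (SD, n = 2 each), 2.03-fold lower. The edgeR log2 change was -1.02 ± 0.0883 (SE) with DMSO and -1.17 ± 0.0891 with eugenol, and the authors' deposited table gave adjusted p of 7.61e-16 and 6.42e-21. Mef2c is deposited at chromosome 2, 11658568 to 11822787, plus strand.

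Mef2d, which in the mouse mediates stress-dependent growth and remodelling of the adult heart, was the only member called higher with ischemia. Its level was 108 and 107 RPM in normoxia DMSO, 110 and 123 in normoxia eugenol, 188 and 188 in ischemia DMSO, and 187 and 175 in ischemia eugenol. Here every ischemia library was above every normoxia library. With DMSO the mean rose from 108 ± 0.394 to 188 ± 0.0601 RPM (SD, n = 2 each), 1.75-fold higher, and with eugenol from 116 ± 9.21 to 181 ± 8.60 RPM, 1.55-fold higher. The edgeR log2 changes were 0.81 ± 0.0852 (SE) and 0.64 ± 0.0851, and the adjusted p in the authors' deposited table was 1.68e-13 and 3.78e-08. Mef2d is deposited at chromosome 2, 187512164 to 187538026, plus strand. Of the related MADS-box genes in the tables, Mef2b rose from a very low level (0.124 ± 0.176 to 1.16 ± 0.130 RPM, SD, n = 2, with DMSO) and Srf fell (207 ± 8.89 to 116 ± 7.20 RPM).

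Nkx2-5, a homeodomain factor among the first markers of heart progenitors, also fell. Its level was 203 and 199 RPM in normoxia DMSO, 204 and 200 in normoxia eugenol, 142 and 145 in ischemia DMSO, and 135 and 150 in ischemia eugenol. The 4 normoxia libraries were nearly alike and did not overlap with the ischemia libraries. The mean with DMSO was 201 ± 2.76 RPM in normoxia and 143 ± 2.13 RPM in ischemia (SD, n = 2 each), 1.40-fold lower. The edgeR log2 change was -0.49 ± 0.0819 (SE) with DMSO and -0.50 ± 0.0821 with eugenol, with adjusted p of 5.93e-06 and 4.91e-06 in the authors' deposited table. A fold minimum of 1.5 removed Nkx2-5 from the calls in both comparisons. Its deposited position is chromosome 10, 16635989 to 16638764, plus strand.

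Gata4, partner of Nkx2-5 and Tbx5, had the highest RPM of the members with an entry, and values in the eugenol groups only. It was at 434 and 423 RPM in normoxia eugenol and at 359 and 368 RPM in ischemia eugenol. The ischemia libraries were both lower. The mean went from 428 ± 7.83 to 363 ± 6.05 RPM (SD, n = 2 each), 1.18-fold lower, and the authors' deposited table gave a log2 change of -0.24 with an adjusted p of 0.0127. This change was closer to 0 than the median of -0.27 of all genes listed in the same table. The call depended on the scaling: the edgeR log2 change was -0.24 ± 0.0741 (SE) with an adjusted p of 0.0215 on the read totals, -0.16 with 0.120 under TMM and -0.02 with 1 under DESeq2 size factors. Without normoxia eugenol replicate 1 or 2 the log2 change stayed at -0.22 and -0.26, and the adjusted p was 0.174 and 0.0968 with 1 library fewer. The related Gata5, outside the 10, fell in both comparisons, from 41.8 ± 1.40 to 30.7 ± 1.03 RPM (SD, n = 2) with DMSO and from 46.9 ± 0.0730 to 26.8 ± 2.32 RPM with eugenol. Gata4 is deposited at chromosome 15, 46386712 to 46432965, minus strand.

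Hand2, a basic helix-loop-helix factor needed for the right ventricle in the mouse embryo, had the lowest RPM of the members with an entry. Its counts were 147 and 150 reads in normoxia DMSO, 164 and 117 in normoxia eugenol, 101 and 111 in ischemia DMSO, and 43 and 69 in ischemia eugenol. In RPM these were 8.88 and 9.33, 10.6 and 7.96, 5.69 and 6.96, and 2.69 and 4.13. Ischemia libraries did not overlap with normoxia libraries, and the ischemia eugenol libraries lay below the ischemia DMSO libraries. With eugenol the mean fell from 9.28 ± 1.87 to 3.41 ± 1.02 RPM (SD, n = 2 each), an edgeR log2 change of -1.44 ± 0.255 (SE), with an adjusted p of 0.000346 in the authors' deposited table. With DMSO the mean was 9.10 ± 0.313 RPM in normoxia and 6.33 ± 0.900 RPM in ischemia, and the edgeR log2 change of -0.53 ± 0.240 did not pass (adjusted p = 0.121); Hand2 was not listed in the authors' deposited table for this pair of groups. The deposited position is chromosome 16, 36371489 to 36373546, minus strand.

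**Figure D2:**
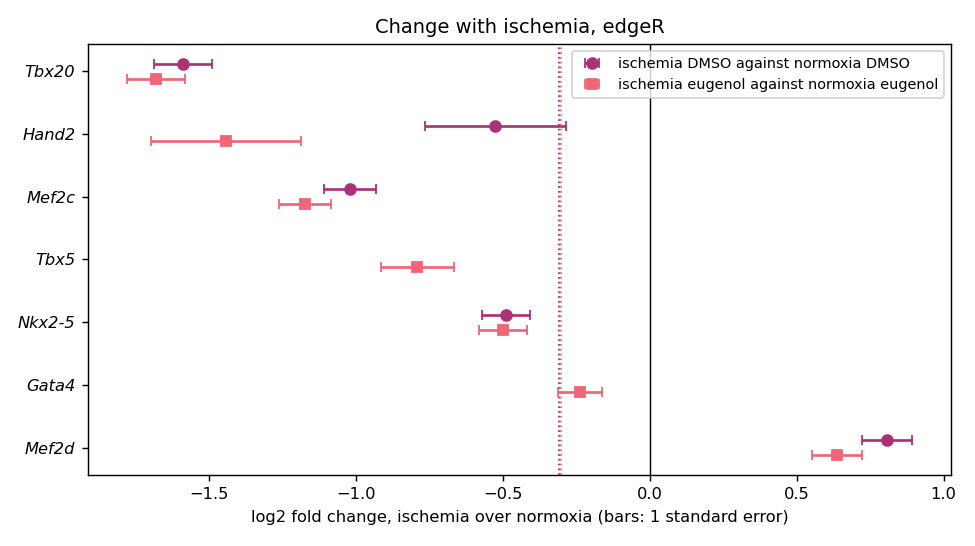
Log2 fold change of ischemia over normoxia for each member, from edgeR, with DMSO (circles) and with eugenol (squares); bars are 1 standard error, and the dotted lines mark the median of the 6582 genes fitted, -0.31 and -0.30. Tbx20 lies farthest left at -1.59 and -1.68, Gata4 lies at the dotted lines, and Mef2d alone lies right of 0.

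The changes were also read against the middle of all genes, since the scaling moves that middle. On the read totals the median log2 change of the 6582 genes with counts in all libraries was -0.31 with DMSO, against -0.23 under TMM and -0.08 under DESeq2 size factors. Relative to it, with DMSO, Tbx20 changed by -1.28, Mef2c by -0.71, Nkx2-5 by -0.18 and Mef2d by 1.12, values that a scaling leaves in place because it shifts all genes alike. No called member other than Gata4 lost its call, and none changed direction, under these scalings in the 2 comparisons of ischemia with normoxia at the same treatment.

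**Figure D3:**
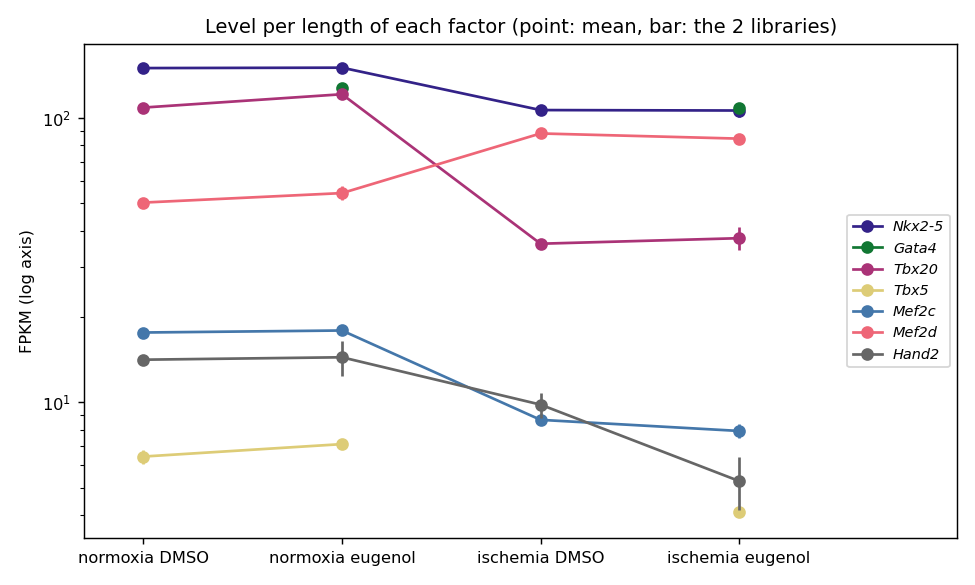
Level per gene length of each member (authors' FPKM, log axis) in the 4 groups; points are means and bars span the 2 libraries. Tbx20 and Mef2d exchange places between normoxia (109 and 50.4 FPKM with DMSO) and ischemia (36.1 and 88.2 FPKM). Of the genes with a value in a group, Nkx2-5 is highest, except in ischemia eugenol, where it overlaps with Gata4. Gata4 has no value in the DMSO groups.

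Per gene length, the order of the members changed with ischemia. In normoxia DMSO the mean level was 150 FPKM for Nkx2-5, 109 for Tbx20, 50.4 for Mef2d, 17.6 for Mef2c, 14.1 for Hand2 and 6.44 for Tbx5. No neighbours in this order overlapped between their 2 libraries. In ischemia DMSO it was 107 FPKM for Nkx2-5, 88.2 for Mef2d, 36.1 for Tbx20, 9.81 for Hand2 and 8.67 for Mef2c. Mef2d thus stood above Tbx20 in ischemia and below it in normoxia. Hand2 also stood above Mef2c in ischemia DMSO, but only just. The libraries were at 8.82 and 10.8 FPKM for Hand2 and at 8.80 and 8.55 FPKM for Mef2c. In ischemia eugenol Mef2c, at 7.93 FPKM, stood above Hand2 again. In normoxia eugenol Gata4 entered at 128 FPKM, between Nkx2-5 at 150 and Tbx20 at 121. In ischemia eugenol Gata4 at 108 and Nkx2-5 at 106 FPKM overlapped, as did Hand2 at 5.28 and Tbx5 at 4.11, and no other neighbours did. The gene lengths behind FPKM came from the authors and ran from 645 bases for Hand2 to 6451 for Mef2c.

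Eugenol against DMSO gave no called member at either oxygen level. In ischemia 0 of the 10 were called, where 0.121% of all genes tested were, and 1 member, Hand2, had an unadjusted p under 0.05. The authors' deposited table gave Hand2 a log2 change of -0.88, a p of 0.0222 and an adjusted p of 1.00. In the edgeR fit of 8 libraries Hand2 changed by -0.89 ± 0.259 (SE; adjusted p = 1), and in a fit of those 2 groups alone the standard error was 0.662. The other members with 8 libraries were near 0 in ischemia by edgeR: 0.07 ± 0.0990 for Tbx20, -0.06 ± 0.0838 for Mef2d, -0.13 ± 0.0902 for Mef2c and -0.01 ± 0.0822 for Nkx2-5. An interval of 2 SE on each side ran from -0.13 to 0.26 for Tbx20 and from -0.31 to 0.05 for Mef2c, so changes larger than these were outside it.

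In normoxia none of the 10 members was listed as differing with eugenol, where 0.181% of all genes tested were called, so none had an unadjusted p under 0.05 in the authors' deposited table. The edgeR log2 changes were 0.16 ± 0.0947 (SE) for Tbx20, 0.15 ± 0.121 for Tbx5, 0.11 ± 0.0858 for Mef2d, 0.02 ± 0.0860 for Mef2c, 0.03 ± 0.236 for Hand2 and 0.00 ± 0.0814 for Nkx2-5. DESeq2's Wald test on the 8 libraries called none of the 5 members with counts in all libraries in either eugenol comparison. The ratio of the eugenol mean to the DMSO mean was 1.11 at most among these members.

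Ischemia with eugenol against normoxia with DMSO, which shares libraries with the comparisons above, called 6 of the 10 members, 5 lower and 1 higher, where 39.3% of genes tested were called (20.8% lower and 18.5% higher). The log2 changes in the authors' deposited table were -1.54 for Tbx20, -1.43 for Hand2, -1.16 for Mef2c, -0.66 for Tbx5, -0.51 for Nkx2-5 and 0.74 for Mef2d. Under DESeq2 size factors Nkx2-5 and Tbx5 lost their calls in this pair of groups.

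Whether eugenol altered the response to ischemia was tested as an interaction in the edgeR fit of 8 libraries. None of the 5 members with counts in all libraries passed, where 0.0152% of 6582 genes did. Hand2 alone had an unadjusted p under 0.05, with a log2 difference of -0.92 ± 0.350 (SE; adjusted p = 1.00) between its changes of -1.44 with eugenol and -0.53 with DMSO. For Mef2d the difference was -0.17 ± 0.120. The differences for Mef2c, Tbx20 and Nkx2-5 were -0.15, -0.09 and -0.01. DESeq2's Wald test also passed none of the 5.

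**Figure D4:**
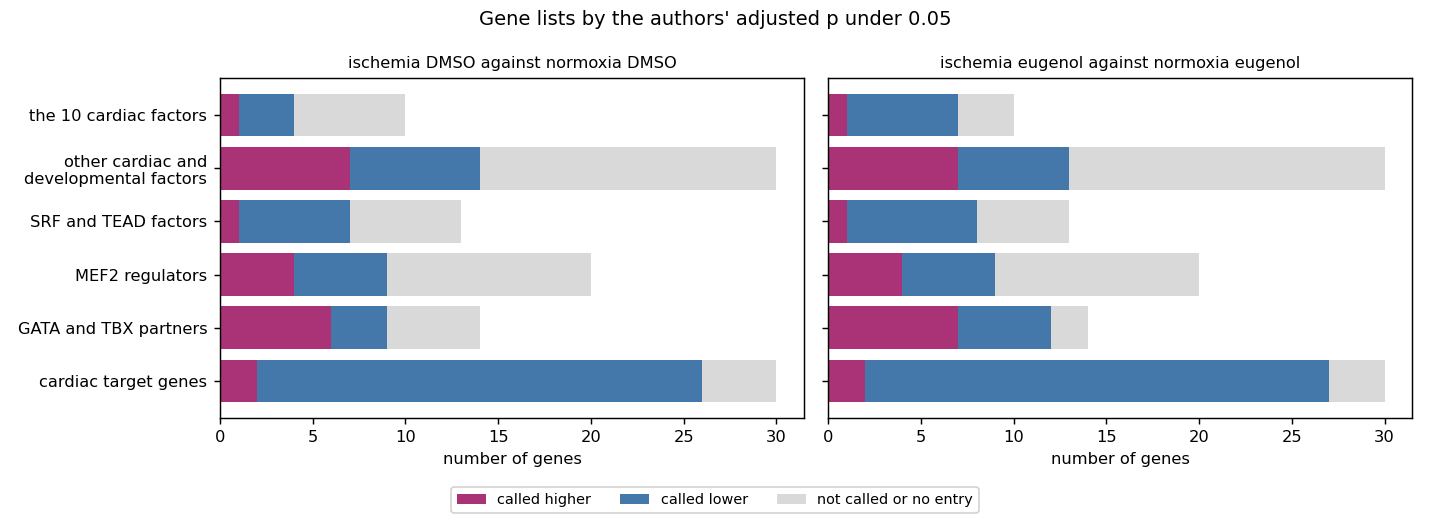
Number of genes of each list called higher, called lower, or not called or without an entry, at the authors' adjusted p under 0.05, for ischemia against normoxia with DMSO (left) and with eugenol (right). The cardiac target list has 24 and 25 of 30 genes called lower, and the partner list has 6 and 7 of 14 called higher.

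Genes around the members were read from lists chosen with earlier results of these data known. Of 30 textbook targets of the cardiac factors, 24 fell and 2 rose with DMSO, and 25 fell and 2 rose with eugenol, beside 21.2% and 21.5% of all genes tested called lower. The median log2 change of the listed targets was -1.21 and -1.15, against -0.27 for all genes listed in each table. Casq2, the calcium-binding protein of the sarcoplasmic reticulum, fell from 1187 ± 124 to 339 ± 22.0 RPM with DMSO (SD, n = 2 each). Myl4, an atrial myosin light chain, went from 254 ± 4.37 to 50.9 ± 5.79 RPM, Xirp1, an actin-binding repeat protein, from 385 ± 51.6 to 58.8 ± 3.29 RPM, and Ankrd1, a stretch-responsive repeat protein, from 5230 ± 754 to 944 ± 107 RPM. The cardiomyocyte, fibroblast, smooth muscle, endothelial and macrophage marker sums fell with the same libraries, and the epicardial sum did not. Of these targets, 10 are also on the cardiomyocyte marker list.

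Of 20 regulators of MEF2, 4 rose and 5 fell with DMSO, and likewise 4 and 5 with eugenol. These counts are near the share of all genes tested that were called (19.7% higher and 21.2% lower with DMSO, 19.6% and 21.5% with eugenol). The kinase gene Prkd2 rose from 6.07 ± 0.555 to 14.4 ± 0.167 RPM (SD, n = 2 each, DMSO), and Ppp3ca, the catalytic subunit of the phosphatase calcineurin, from 42.4 ± 0.317 to 74.5 ± 4.43 RPM. Camk2d, the main cardiac calcium/calmodulin kinase II gene, fell from 141 ± 7.58 to 98.0 ± 4.91 RPM. Smyd1, a muscle methyltransferase gene, fell from 164 ± 9.53 to 50.4 ± 7.10 RPM. It is counted in this list, but it depends on Mef2c in the mouse heart and so can also be read as a target. The median log2 change of the listed regulators was -0.05 with DMSO and -0.28 with eugenol.

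Of 14 coactivators and chromatin partners of the GATA and T-box factors, 6 rose and 3 fell with DMSO, where 19.7% of all genes tested were called higher and 21.2% lower. With eugenol 7 rose and 5 fell, beside 19.6% and 21.5%, and the list was not tested for a direction. Their listed median was 0.54 and 0.35 on the log2 scale. The acetyltransferase genes Crebbp and Ep300 rose from 41.9 ± 0.365 to 107 ± 6.78 RPM and from 22.2 ± 2.74 to 38.6 ± 0.574 RPM with DMSO (SD, n = 2 each). Cited2, whose protein binds both acetyltransferases, rose from 144 ± 9.18 to 232 ± 12.2 RPM, and Wdr5, a subunit of histone methyltransferase complexes, from 45.8 ± 4.97 to 73.3 ± 6.11 RPM.

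Of 13 serum response factor and TEAD genes and their cofactors, 8 had an entry in any table. With DMSO 6 of the 13 fell and 1 rose, beside 21.2% lower and 19.7% higher of all genes tested. With eugenol 7 fell and 1 rose, beside 21.5% and 19.6%, and this list was not tested for a direction. Myocd, the cardiac and smooth muscle coactivator of Srf, fell from 110 ± 5.46 to 56.9 ± 1.98 RPM with DMSO (SD, n = 2 each), and Tead4, a DNA-binding partner of YAP, from 18.9 ± 0.682 to 6.47 ± 1.58 RPM. Mrtfa, an actin-regulated coactivator of Srf found under an older symbol, fell from 31.7 ± 2.80 to 17.8 ± 2.40 RPM. The listed median was -0.84 and -0.77. Among 30 other cardiac and developmental factors 7 rose and 7 fell with DMSO, and 7 and 6 with eugenol, near the 19.7% higher and 21.2% lower, or 19.6% and 21.5%, of all genes tested. Zfpm1, a cofactor of GATA proteins related to Zfpm2, rose from 71.8 ± 1.68 to 118 ± 6.45 RPM, and Nfatc3, a calcineurin-responsive factor, from 69.0 ± 5.24 to 112 ± 2.18 RPM. Irx4, a ventricle-specific homeobox gene, fell from 79.5 ± 18.1 to 28.7 ± 0.915 RPM and Heyl, a Notch-responsive repressor, from 34.5 ± 3.12 to 13.6 ± 0.224 RPM.

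Genes with the most similar pattern over the libraries were found for each member with 8 libraries. Likeness was measured as the root mean square difference of log2 RPM after each gene's mean over the 8 libraries was removed, among the 5863 genes that averaged 5 RPM or more, so genes of any level can be alike. The closest to Nkx2-5 were Ncstn (0.0201) and Ext2 (0.0269), to Tbx20 RGD1561161 (0.0738) and Ccdc141 (0.0751), and to Mef2c Pola2 (0.0518) and Kif5b (0.0541). The closest to Mef2d were Mcoln1 (0.0184) and Spast (0.0304). The closest to Hand2, which had the fewest reads of these members, was Pdgfd (0.173). The median of this measure over all 5863 genes was 0.468 for Nkx2-5 and 0.682 for Hand2.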

How the data were processed

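Total RNA of 8 libraries in 4 groups was made into libraries with a TruSeq kit and sequenced on an Illumina HiSeq, per the labels' protocols. HISAT2, edgeR, DESeq2 and StringTie 1.3.3b appear in the submitters' processing notes, with no role or order; a genome build is not given in the sources used here. The authors deposited 5 tables, 1 per pair of groups, each with only genes of unadjusted p under 0.05. Each gives the read count per gene, a normalized signal that the authors made by dividing the count by 1 factor per library, FPKM deposited per kilobase of the authors' gene length and per megaread, the authors' log2 fold change, and the authors' p-value and adjusted p-value. The table titles and labels allowed only 1 assignment of the column codes to the groups.

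Members were called at the authors' adjusted p under 0.05, with the number of genes tested recovered from the p-values and adjusted p-values. RPM is the count over the total behind FPKM (14.7 to 17.7 megareads; the SD between libraries includes counting error). The 6582 genes with counts in all 8 libraries were fitted in 1 model with edgeR 4.0.16 quasi-likelihood, scaled to these totals, which gave log2 changes, standard errors and the interaction; its adjusted p for pairs of groups counts as many genes as the authors adjusted. These genes are listed ones, selected for a difference. Tbx5 was fitted on 6 libraries and Gata4 on 4. The fit was tested on simulated data. Means are over 2 libraries.

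The members and lists were chosen with earlier results of these data known. Named were all members and up to 4 called genes per list with the smallest adjusted p with DMSO, the 2 most alike genes per member, and members of small counts; 1 of the genes most alike is not reported here. Tried as alternatives were DESeq2 size factors, TMM, a mean of at least 5 RPM, DESeq2 1.42.0's Wald test, an adjusted p of 0.01, a fold minimum of 1.5, a replicate block and leaving out each library. Other software was matplotlib 3.10.9, SciPy 1.17.1, pandas 2.3.3, NumPy 2.4.6, Python 3.11.15, limma 3.58.1 and R 4.3.3. Promoters are RefSeq's (GRCr8). Replicate libraries were not copies of each other: a chi-square test of their counts gave 6.67 to 15.5 for each degree of freedom.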

Additional observations from a re-analysis of the deposited data

How the results depend on the processing

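The counts of called members stayed within 1.5 times of their reported values under all 75 alternatives run. Part of these could not have come out otherwise. For eugenol in normoxia no member was listed or entered the refits, so 0 calls were fixed in advance. For eugenol in ischemia at most Hand2 entered, and stricter cut-offs on 0 calls could only give 0. Of the single changes, 250 of 272 alternatives kept direction and side of the threshold. The Gata4 call ended under TMM (log2 change -0.16), DESeq2 size factors (-0.02), DESeq2's Wald test (-0.02) and without either normoxia eugenol library (leave-out range -0.26 to -0.22), as well as at an adjusted p under 0.01; the cause was not tested. Nkx2-5 and Tbx5 lost their calls in ischemia eugenol against normoxia DMSO under DESeq2 size factors and DESeq2's Wald test. The changes that turned sign were never called. For eugenol in ischemia, leaving out a library gave -0.0841 to 0.0698 for Nkx2-5 and -0.0750 to 0.19 for Tbx20. In normoxia this gave -0.00978 to 0.0192 for Nkx2-5, -0.0291 to 0.0782 for Mef2c and -0.19 to 0.22 for Hand2. Nkx2-5 with eugenol in normoxia was also -0.00506 under TMM, -0.0146 under DESeq2 size factors and -0.0146 with DESeq2's Wald test. The interaction of Nkx2-5 was 0.00382 under TMM and -0.0889 to 0.0650 with a library left out, and that of Tbx20 was -0.23 to 0.0367. Where a group was left with 1 library, it was assumed to vary like the other groups. With the replicate number as a block 4, 7 and 6 members were called in the 3 ischemia comparisons, and 0 for the interaction. The block changed no call there. In the eugenol comparisons only Hand2, in ischemia, could enter this fit, and it was not called. Same-numbered libraries did not deviate together (correlations of deviations -0.235 to 0.120 over 5863 genes), so the numbers were not taken as pairs. With crossed numbers as a block, added after seeing the data, 7 members were again called in ischemia eugenol against normoxia eugenol. The crossed block in normoxia eugenol against normoxia DMSO held no member and could call none. Depth limits Hand2 most of the members with an entry, with 43 reads in its lowest library, and 2 libraries per group limit every member.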

Other observations

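More of the textbook targets counted above, with a known tie to the members in mouse or rat heart, fell with ischemia in DMSO. They were chosen after their values were seen and add nothing to the counts given above. Gja5, a connexin gene that Tbx5 and Nkx2-5 activate in the mouse, had 14.2 ± 0.971 RPM in normoxia DMSO and 2.60 ± 0.222 RPM in ischemia DMSO (SD, n = 2 each), a log2 change of -2.45 in the authors' deposited table. Nppb, a natriuretic peptide gene with GATA sites, had 1775 ± 302 and 382 ± 75.4 RPM, a log2 change of -2.22 in the authors' deposited table, and Nppa, a target of Nkx2-5, Gata4 and Tbx5, had 21038 ± 425 and 11921 ± 531 RPM, a log2 change of -0.82 in the same table of the authors. Bmp10, a signal of the developing heart wall, had 19.3 ± 2.16 and 8.34 ± 0.962 RPM. Des, the muscle intermediate filament gene, rose instead, from 1448 ± 86.2 to 2418 ± 4.79 RPM.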
